A study of Mus musculus with 8 samples.

Results

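Th, Ddc, Dbh, Pnmt, Slc18a1, Chga, Chgb and Phox2a are genes of sympathetic neurons and of the chromaffin cells of the adrenal medulla, and they are described here in embryonic mouse kidney after prenatal chlorpyrifos (CPF) or its solvent. They are 8 of the 24151 gene symbols in the data. They were taken by symbol, with transcripts summed per symbol, and they had been picked out because their levels by stage in CPF and DMSO libraries stood out, so their differences are given as a description with no test. In short, 5 of them (Th, Dbh, Chga, Chgb and Phox2a) were high at E14.5 in both agents and near 0 at E18.5 in both, and at E16.5 they stayed high in the CPF library and were near 0 in the DMSO library. Pnmt and Slc18a1 followed other courses, and Ddc was listed near 0 in every library.

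Sympathetic neurons and chromaffin cells descend from the neural crest and share the pathway that makes catecholamines. Tyrosine hydroxylase (Th) makes L-DOPA from tyrosine, DOPA decarboxylase (Ddc) turns it into dopamine, dopamine beta-hydroxylase (Dbh) makes noradrenaline inside the storage vesicle, and phenylethanolamine N-methyltransferase (Pnmt) makes adrenaline in chromaffin cells. Slc18a1 (VMAT1) is a proton-coupled transporter that loads monoamines into vesicles, the granins Chga and Chgb are soluble proteins of the dense core of those vesicles, and Phox2a is a homeodomain transcription factor of noradrenergic neurons. The adrenal gland lies on the upper pole of the kidney, and sympathetic ganglia and nerve fibres lie along the renal vessels. Proximal tubule cells of the kidney also use Ddc to make dopamine.

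The kidneys came from embryos of the outbred ICR stock whose mothers, aged 8 weeks at mating, were treated under the skin once a day on gestation days 7.5 to 11.5. In the CPF group the mothers received chlorpyrifos, an organophosphate insecticide, at 5 mg per kg dissolved in DMSO, and in the DMSO group an equal volume of DMSO, so the embryos of both groups had been exposed to DMSO. Kidneys were taken at 4 stages, E12.5 and then every 2 days up to E18.5, which lie 1, 3, 5 and 7 days after the last dose. Each agent has 1 library per stage, 8 in all, and the sources used here do not say how many embryos or litters each holds. Differences at 1 stage therefore have no replicate check.

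The values are TPM, the share of a library's transcripts scaled for transcript length and set to the same total in every library. Levels may thus be set against each other between genes with 1 RefSeq transcript. The steps between low values imply 19.3 to 27.3 reads per library in units of 1000000 reads and a worth of 0.0196 to 0.0913 TPM for 1 read of the members. Of the 24151 genes, 13677 had at least 1 TPM in at least 2 libraries and were tested. Of the 8 members 7 passed, and Ddc did not. Genes with several RefSeq transcripts were listed low in these files, with a median of 0.142 TPM over 4777 genes, against 3.64 TPM over the 19374 genes with 1 transcript. Such genes can add little to the sums of lists below, or to their counts of genes at 1 TPM. Rpph1 and Rmrp together took 19.3 to 21.8% of TPM in CPF libraries and 19.6 to 41.8% in DMSO libraries, a share that leaves less for every other gene. The libraries held 7 or 8 of 8 kidney marker genes at 1 TPM or more, with summed levels of 188 to 380 TPM in CPF and 217 to 483 TPM in DMSO libraries.

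The label of the group of genes was checked against 6 defining markers of chromaffin and sympathetic cells, which are 5 of the members with Hand2, a further transcription factor of this lineage. Since 5 of the 6 are genes picked on these levels, the check is a description, and Hand2 alone stands outside the choice of members. In order of stage the markers summed to 22.0, 191, 101 and 0.320 TPM in CPF libraries, against 11.7, 128, 0.963 and 0.141 TPM in DMSO libraries. All 6 reached 1 TPM in the CPF libraries of E12.5, E14.5 and E16.5 and in the DMSO library of E14.5. At E12.5 in DMSO 4 of them did, and in the DMSO library of E16.5 and both libraries of E18.5 none did. Hand2 read 4.74, 15.7, 18.2 and 0 TPM in CPF, against 3.42, 6.12, 0.0603 and 0.0272 TPM in DMSO. Pnmt and Slc18a1, members that are not among these 6, were above 1 TPM in all 8 libraries. At E18.5 Pnmt read 2.24 TPM in CPF, against 6.99 TPM in DMSO. Slc18a1 then read 26.6 TPM in CPF, against 4.11 TPM in DMSO. At that stage the label therefore does not describe what the 8 genes share. In bulk tissue fewer cells of a type and less RNA per cell cannot be told apart, and that applies to every level below.

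The stretches of 250 bases upstream of the annotated start are printed for 4 of the genes that varied together, because they let a reader see what their promoters share and do not share. They are from RefSeq, build GRCm38.p6, and run 5′ to 3′ on the strand of the gene. Th lies at chr7:142899996-142900245 (minus strand), Chga at chr12:102554691-102554940 (plus strand), Chgb at chr2:132781392-132781641 (plus strand) and Dbh at chr2:27165257-27165506 (plus strand), each pair of coordinates giving the stretch shown. Capitals mark TGACGT, the core of the cyclic AMP response element, on either strand, and in Th and Chgb matches on both strands overlap.
Th: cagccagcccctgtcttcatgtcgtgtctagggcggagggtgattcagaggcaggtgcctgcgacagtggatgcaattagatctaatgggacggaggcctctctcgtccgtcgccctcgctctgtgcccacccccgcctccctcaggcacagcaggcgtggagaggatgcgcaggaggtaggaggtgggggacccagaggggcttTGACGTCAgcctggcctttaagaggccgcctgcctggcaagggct
Chga: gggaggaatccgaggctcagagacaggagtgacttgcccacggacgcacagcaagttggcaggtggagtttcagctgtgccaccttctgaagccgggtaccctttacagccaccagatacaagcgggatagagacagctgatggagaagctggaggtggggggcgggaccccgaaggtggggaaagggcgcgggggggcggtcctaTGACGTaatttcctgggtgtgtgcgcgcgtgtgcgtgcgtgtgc
Chgb: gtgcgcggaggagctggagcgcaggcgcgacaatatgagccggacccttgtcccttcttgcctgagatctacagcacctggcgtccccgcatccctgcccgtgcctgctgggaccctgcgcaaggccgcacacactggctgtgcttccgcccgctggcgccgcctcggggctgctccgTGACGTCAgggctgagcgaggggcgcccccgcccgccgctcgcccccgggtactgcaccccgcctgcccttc
Dbh: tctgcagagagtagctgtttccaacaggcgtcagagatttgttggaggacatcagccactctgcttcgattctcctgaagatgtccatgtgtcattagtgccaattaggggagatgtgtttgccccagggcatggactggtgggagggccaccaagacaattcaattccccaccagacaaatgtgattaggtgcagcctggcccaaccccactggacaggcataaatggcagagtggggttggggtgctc
The match starts 45 bases before the annotated start in Th, 44 bases before it in Chga and 72 bases before it in Chgb, and the Dbh stretch has none. The stretch of Phox2a, which varied together with these genes, is not printed and has none either. The RefSeq table held 7 windows of 300 bases, 250 before and 50 after the start, for 6 members (2 for Ddc). TGACGT was in 3 of these 7 windows, against 7.51% of 32851 windows of the same length. The GC box GGGCGG was in 4 of 7 windows, against 35.7% of all windows, and the TATA box letters TATAAA in 2 of 7, against 13.6%. The TATAAA of Chga lies after the annotated start, and that of Ddc lies on the strand opposite to the gene. The E box CACGTG, the homeodomain motif TAATTA and the GATA motif AGATAA were in 0 of 7, against 7.15, 5.29 and 11.2% of all windows. Both strands were searched in each case, and the matches are letters in a window, with no binding measured.

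Among the enzymes, Th (chr7:142892779-142899995, minus strand) read 1.62, 34.4, 19.2 and 0 TPM in the CPF libraries, given here and below in order of stage, against 1.80, 19.2, 0.0386 and 0 TPM in the DMSO libraries. Both agents were alike at E12.5 and listed at 0 at E18.5, the CPF value was 1.79 times the DMSO value at E14.5, and at E16.5 the CPF library held an estimated 429 reads, against 1 in DMSO. No fold is given for that stage, since the DMSO value rests on about 1 read. Dbh (chr2:27165507-27183204, plus strand) read 7.59, 52.1, 20.4 and 0.0460 TPM in CPF, against 3.54, 31.1, 0 and 0.0267 TPM in DMSO. The CPF value was 2.14 times the DMSO value at E12.5 and 1.68 times at E14.5, and at E16.5 Dbh was listed at 0 in DMSO. The 3 highest of the 8 Dbh values were the E14.5 values of CPF and DMSO and the E16.5 value of CPF, as for Th.

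The enzyme after Dbh in the pathway did not share this course. Pnmt (chr11:98386623-98388180, plus strand), the enzyme of adrenaline synthesis, read 3.87, 3.18, 7.04 and 2.24 TPM in CPF, against 7.64, 3.00, 5.78 and 6.99 TPM in DMSO. Its whole range over the 8 libraries, 2.24 to 7.64 TPM, is narrow beside that of Dbh, and the CPF and DMSO ranges overlap. The CPF value was 0.507 times the DMSO value at E12.5, 1.06 times at E14.5, 1.22 times at E16.5 and 0.321 times at E18.5. Pnmt was thus highest in DMSO at E12.5 and lowest in CPF at E18.5. It held an estimated 132 reads in DMSO and 25 in CPF at E18.5, where Th and Dbh were near 0. Ddc (chr11:11814101-11898144, minus strand), which has 2 RefSeq transcripts, was listed at 0.0519, 0.0484, 0.283 and 0.367 TPM in CPF, against 0.161, 0.203, 0 and 0.0303 TPM in DMSO, which is at most 7 reads of any 1 transcript. Given how genes with several transcripts are listed in these files, the values of Ddc are listed values only, and no level of Ddc is read from them.

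**Figure D1:**
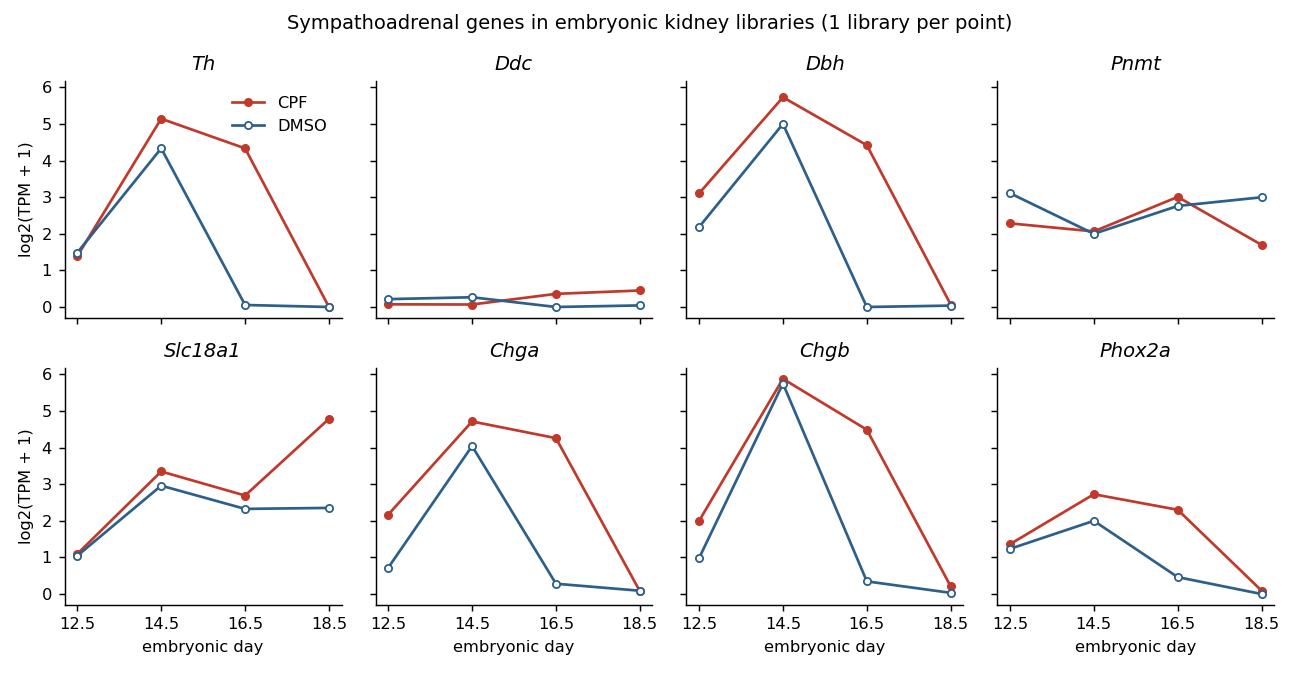
Level of each of the 8 genes, as log2(TPM + 1), against embryonic day, with filled red points for CPF and open blue points for DMSO, 1 library per point. Th, Dbh, Chga, Chgb and Phox2a part at E16.5, where the CPF library reads 3.93 to 21.5 TPM and the DMSO library at most 0.377 TPM, while Pnmt and Slc18a1 part most at E18.5.

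Among the vesicle genes, Chga (chr12:102554941-102565027, plus strand) read 3.50, 25.3, 18.1 and 0.0557 TPM in CPF, against 0.644, 15.5, 0.215 and 0.0647 TPM in DMSO. It was 5.43 times the DMSO value in CPF at E12.5, 1.63 times at E14.5 and 84.2 times at E16.5, the last on an estimated 418 reads in CPF and 6 in DMSO. Chgb (chr2:132781642-132795079, plus strand) read 2.99, 57.9, 21.5 and 0.153 TPM in CPF, against 0.973, 52.9, 0.271 and 0.0222 TPM in DMSO. The agents differed least for Chgb at E14.5, where the ratio of CPF to DMSO was 1.10, and it was 3.08 at E12.5 and 79.1 at E16.5 (an estimated 720 reads in CPF and 11 in DMSO). At 57.9 TPM in CPF and 52.9 TPM in DMSO, Chgb had the highest level of the 8 genes in both libraries of E14.5. At E18.5 both granins were down to an estimated 1 to 4 reads per library.

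Slc18a1 (chr8:69037708-69089238, minus strand) read 1.14, 9.18, 5.46 and 26.6 TPM in CPF, against 1.06, 6.79, 4.01 and 4.11 TPM in DMSO. It was similar in both agents up to E16.5, with CPF at 1.07, 1.35 and 1.36 times DMSO, and 6.48 times DMSO at E18.5 (an estimated 786 reads in CPF and 210 in DMSO). The highest Slc18a1 value thus falls in the library where Th was listed at 0 and Dbh, Chga and Phox2a rested on about 1 read each. The transcription factor Phox2a (chr7:101818313-101822726, plus strand) read 1.57, 5.62, 3.93 and 0.0650 TPM in CPF, against 1.35, 3.00, 0.377 and 0 TPM in DMSO. Its ratio of CPF to DMSO was 1.16 at E12.5, 1.87 at E14.5 and 10.4 at E16.5, the last on an estimated 77 reads in CPF and 9 in DMSO. Phox2a was the lowest in level of the 5 genes that varied together at E14.5 and E16.5 in CPF.

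At each stage the members were set beside all tested genes. A member or gene was counted as past 2-fold where its log2 ratio of (TPM + 1), CPF over DMSO, lay beyond 1 in either direction, and these counts include the values the genes were picked on, so nothing is read from them. At E12.5, 2 of 7 members (Chga and Chgb) were past 2-fold higher in CPF and 0 lower, beside 6.04% of all tested genes higher and 2.50% lower. At E14.5 none of the 7 was past 2-fold, beside 6.18% higher and 2.16% lower. At E16.5, 5 of 7 (Th, Dbh, Chga, Chgb and Phox2a) were higher and 0 lower, beside 7.44% higher and 3.20% lower. At E18.5 Slc18a1 was higher and Pnmt lower, beside 20.4% higher and 2.02% lower. The median of all tested genes on this scale was -0.12, 0.03, 0.13 and 0.53 from E12.5 to E18.5, and relative to it Slc18a1 lay at 1.90 and Pnmt at -1.83 at E18.5. Of all genes past 2-fold, 70.7, 74.1, 70.0 and 91.0% were higher in CPF in order of stage, and after quantile normalization 69.4, 62.8, 56.0 and 55.5%. Quantile normalization also turned the sign of small ratios, with Phox2a and Slc18a1 at -0.02 and -0.14 at E12.5 (0.13 and 0.05 without it) and Pnmt at -0.12 at E14.5 (0.07 without it).

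**Figure D2:**
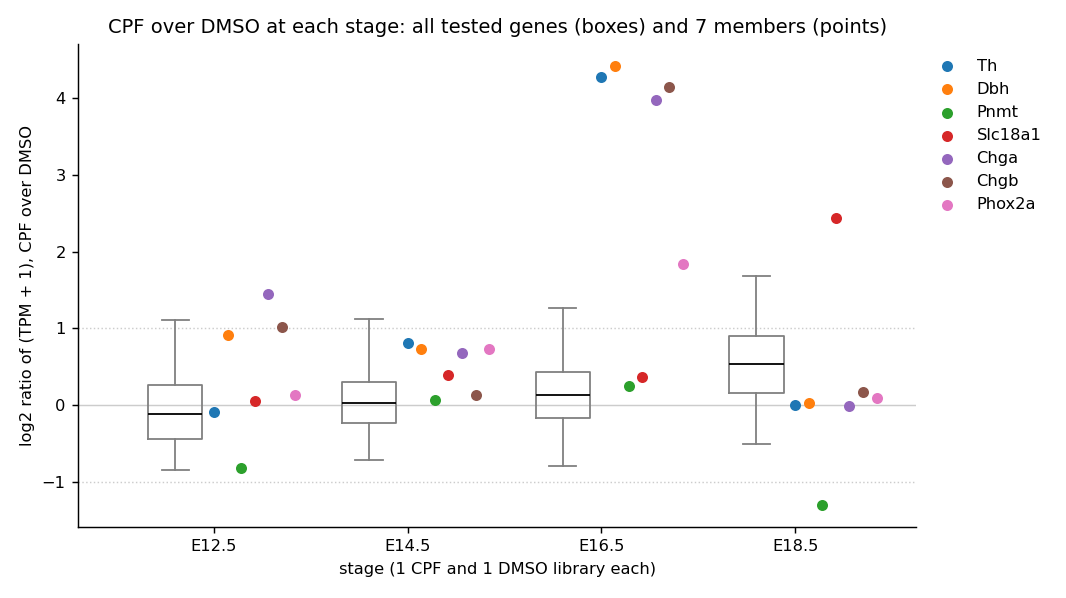
Log2 ratio of (TPM + 1), CPF over DMSO, at each stage (1 CPF and 1 DMSO library each) for 7 members (coloured points) and for all 13677 tested genes (boxes with the median and quartiles, and whiskers at the 5th and 95th percentiles). Th, Dbh, Chga, Chgb and Phox2a lie between 1.84 and 4.42 at E16.5, where the height of genes near 0 in DMSO is set by the added 1, and at E18.5 Slc18a1 lies at 2.43 and Pnmt at -1.30.

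Over the 4 stages together, a linear model (limma on log2(TPM + 1), with stage as a term) gave each member an average difference of CPF minus DMSO. Its SE rests on the spread of that difference between stages, drawn by limma toward the spread of other genes. The SE can therefore be smaller than the member's own spread between stages would give. Dbh was higher in CPF by 1.52 ± 0.72 and Chga by 1.52 ± 0.61 (log2, SE, n = 4 stage pairs). Chgb was higher by 1.37 ± 0.68, Th by 1.25 ± 0.77, Slc18a1 by 0.81 ± 0.39 and Phox2a by 0.70 ± 0.34, and Pnmt lower, at -0.45 ± 0.33. The members' median was 1.25, beside 0.15 over all tested genes, and 6 of 7 lay above 0. The E16.5 pair weighs heavily on these averages, and without it the members' median was 0.44, with Th at 0.24, Dbh at 0.56 and Chgb at 0.44.

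Over development, across both agents, 6 of the 7 members were lower at E18.5 than at E12.5. The log2 difference of E18.5 minus E12.5 was -2.59 ± 1.02 for Dbh, -1.44 ± 1.09 for Th, -1.37 ± 0.97 for Chgb, -1.36 ± 0.87 for Chga, -1.25 ± 0.48 for Phox2a and -0.35 ± 0.47 for Pnmt (± SE). Slc18a1 was the exception at 2.50 ± 0.55, with 3.69 in the CPF libraries alone and 1.31 in the DMSO libraries alone. Each SE here comes from the residual of the fit over all 8 libraries, which includes the agent gap at E16.5. It is not the spread of the difference between CPF and DMSO libraries. The members' median was -1.36, beside -0.21 over all genes. The difference between the end stages leaves out the course between them, since the 5 genes that varied together peaked at E14.5 in both agents. Their summed level was 17.3, 175, 83.1 and 0.320 TPM in CPF, against 8.31, 122, 0.902 and 0.114 TPM in DMSO.

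The 7 genes other than Ddc fall into 3 patterns over the 8 libraries, which share stage and depth and so are not independent points. Among Th, Dbh, Chga, Chgb and Phox2a the 10 pairwise Pearson correlations of log2(TPM + 1) were 0.934 to 0.982. Pnmt correlated with these genes at -0.297 to -0.105 and Slc18a1 at -0.078 to 0.148, and Pnmt with Slc18a1 at -0.657. The 5 genes did not keep fixed proportions. Th relative to Dbh was 0.213, 0.660 and 0.940 in CPF at E12.5, E14.5 and E16.5, against 0.508 and 0.617 in DMSO at E12.5 and E14.5. Chga relative to Dbh was 0.460, 0.485 and 0.889 in CPF, against 0.182 and 0.498 in DMSO, and Chgb relative to Dbh was 0.394, 1.11 and 1.05 in CPF, against 0.275 and 1.70 in DMSO. At E14.5 the ratios of Th and Chga to Dbh were thus close in both agents, and that of Chgb was higher in DMSO.

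A wider list of 49 further sympathoadrenal and chromaffin genes held 39 that passed the filter. In CPF minus DMSO 36 of the 39 lay above 0, with a median of 0.46 beside 0.15 over all genes, and limma called 0 of 39 at an adjusted p under 0.05 (Benjamini-Hochberg over all tested genes), with 10 at an unadjusted p under 0.05. Of all tested genes 0.154% were called higher and 0.00731% lower, and 1306 had an unadjusted p under 0.05. At E16.5, 20 of 39 were past 2-fold higher in CPF and 0 lower, where 7.44% and 3.20% of all genes were. At E14.5 the counts were 8 higher and 0 lower, beside 6.18 and 2.16% of all genes. At E12.5 they were 2 and 1, beside 6.04 and 2.50%, and at E18.5 8 and 1, beside 20.4 and 2.02%, so that the list was near the background at these stages.

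Among transcription factors of the lineage, Hand2, whose values are given above, was high at E16.5 in CPF and near 0 in DMSO. Isl1, a LIM homeodomain factor of sympathetic neurons, read 6.52, 14.8, 14.6 and 0.249 TPM in CPF, against 4.95, 3.83, 0.240 and 0.0722 TPM in DMSO. Isl1 was likewise high at E16.5 in CPF and near 0 in DMSO, as Phox2a was. Gata2 and Gata3, which the kidney also uses, did not show this course, and Gata3 read 9.17, 9.49, 12.0 and 24.0 TPM in CPF, against 15.2, 12.8, 15.6 and 9.07 TPM in DMSO.

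Of the genes that supply and store catecholamines, Gch1, the first enzyme of the synthesis of the Th cofactor tetrahydrobiopterin, read 2.01, 10.4, 6.99 and 1.89 TPM in CPF, against 1.34, 6.31, 0.976 and 0.880 TPM in DMSO. The second vesicle transporter Slc18a2 (VMAT2) read 15.6, 45.5, 20.7 and 11.9 TPM in CPF, against 9.20, 28.8, 11.9 and 9.55 TPM in DMSO. Slc18a2 thus peaked at E14.5 with Dbh (r = 0.877 over the 8 libraries) and, unlike Dbh, remained detected at E16.5 and E18.5 in DMSO. The noradrenaline transporter Slc6a2 read 0.466, 4.74, 2.15 and 0.103 TPM in CPF, against 0.0133, 0.796, 0.111 and 0.0701 TPM in DMSO. Of the peptides stored with catecholamines, neuropeptide Y (Npy) read 8.76, 57.8, 47.3 and 21.6 TPM in CPF, against 9.37, 28.9, 5.85 and 5.61 TPM in DMSO. Proenkephalin (Penk) ran the other way over time, at 20.7, 44.9, 100 and 266 TPM in CPF, against 7.70, 47.7, 198 and 138 TPM in DMSO, with its CPF value below its DMSO value at E16.5. Between E18.5 and E12.5, 2 of the 39 genes rose (Penk by 3.81 ± 0.49 and Pcbd1 by 1.86 ± 0.48) and 6 fell (Gfra3, Nefl, Nefm, Ngfr, Sncg and Sox11), by limma at an adjusted p under 0.05, beside 4.67% of all genes called higher and 3.73% called lower.

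Of 15 genes of catecholamine breakdown and uptake, 12 passed the filter and limma called 0 in CPF minus DMSO, with 3 at an unadjusted p under 0.05. Monoamine oxidase A (Maoa) read 55.3, 59.8, 45.3 and 38.5 TPM in CPF, against 34.8, 54.3, 47.3 and 30.1 TPM in DMSO, with no gap at E16.5. Between E12.5 and E18.5, 2 of the 12 rose and 0 fell, among them the organic cation transporter Slc22a2, which takes up monoamines in the kidney, by 4.34 ± 0.65. At E18.5 Slc22a2 read 60.5 TPM in CPF and 8.50 TPM in DMSO. Of 14 dopamine and adrenergic receptors 5 passed the filter and limma called 0 in CPF minus DMSO, with 2 at an unadjusted p under 0.05. The alpha-2B receptor Adra2b, which read 0.871, 2.96, 3.66 and 26.5 TPM in CPF, against 0.348, 0.775, 3.23 and 2.34 TPM in DMSO, rose between E12.5 and E18.5 by 2.60 ± 0.62. Like Slc18a1 it was highest in the CPF library of E18.5.

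Markers of other tissues moved with the members, and their part in the members' differences was not tested. Over 13 adrenal cortex genes the summed level was 92.4, 882, 834 and 174 TPM in CPF, against 55.5, 106, 121 and 74.1 TPM in DMSO, with 9, 11, 11 and 6 of 13 at 1 TPM or more in CPF and 3, 7, 4 and 3 in DMSO. Fdx1 and Akr1b7 made up most of the DMSO sums and of the CPF sum at E18.5, so those sums say little of the other genes listed. In DMSO at E16.5 Fdx1 read 56.45 TPM and Akr1b7 55.0 TPM, where Hsd3b1 read 0.255 TPM. Cyp11a1, the side chain cleavage enzyme of steroid synthesis, read 5.03, 47.4, 108 and 1.01 TPM in CPF, against 0.137, 2.84, 0.648 and 0.138 TPM in DMSO. Cyp11b1 and Cyp21a1, defining markers of cortex, were listed at 0 in the CPF library of E18.5. At E14.5, where Dbh was 52.1 TPM in CPF and 31.1 TPM in DMSO, Cyp11a1 relative to Dbh was 0.910 in CPF and 0.0915 in DMSO. Cyp11a1 and Dbh were thus in different proportions in the 2 libraries of that stage. Hsd3b1, a steroid dehydrogenase, relative to Dbh was 4.47 in CPF and 0.173 in DMSO at E14.5.

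Over 12 neuronal genes the summed level was 124, 260, 191 and 32.3 TPM in CPF, against 97.3, 110, 41.3 and 30.1 TPM in DMSO, with 8, 8, 8 and 2 of 12 at 1 TPM or more in CPF and 6, 8, 7 and 4 in DMSO. Tubb3, a neuronal tubulin, read 11.8, 43.1, 38.1 and 0.364 TPM in CPF, against 6.79, 11.9, 1.76 and 0.635 TPM in DMSO. Over 10 pancreatic endocrine genes, a cell type that also makes granins, the sum was 139 TPM in the CPF library of E16.5, against at most 2.97 TPM in any of the other 7 libraries. Gcg at 55.3 TPM, Pyy at 28.5, Iapp at 21.3 and Ins1 at 19.4 made up most of it, and Ins2 and Pax4, with 3 transcripts each, were listed at 0 throughout. That is the library in which Chga and Chgb stood 84.2 and 79.1 times above DMSO. At E14.5 in CPF, where Chga and Chgb were higher still, the pancreatic endocrine sum was 2.58 TPM.

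Over 10 liver genes the sum was 212, 5065, 6076 and 1078 TPM in CPF, against 22.9, 1002, 72.1 and 44.9 TPM in DMSO, with 8, 9, 9 and 9 of 10 at 1 TPM or more in CPF and 5, 9, 6 and 6 in DMSO. Within CPF the liver genes, like Dbh, were highest at E14.5 and E16.5, and within DMSO at E14.5. Over 8 Schwann cell and glia genes the sum was 44.7, 111, 73.0 and 54.0 TPM in CPF, against 31.8, 43.8, 32.3 and 18.6 TPM in DMSO. Over 6 enteric neuron genes it was 21.2 to 25.1 TPM in CPF, against 19.6 to 30.6 TPM in DMSO. Hoxb5 was the largest part of that sum, at 9.53 to 17.7 TPM in CPF and 14.0 to 25.2 TPM in DMSO. Of the 4 enteric genes that passed the filter, Vip and Nos1 were higher in CPF at 4 stages, Ret at 3 and Hoxb5 at 1. Over 8 erythroid genes the sum was 36800, 17520, 877 and 28.0 TPM in CPF, against 8053, 4036, 592 and 65.3 TPM in DMSO, which is highest at E12.5 in both agents and so follows another course than the members.

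**Figure D3:**
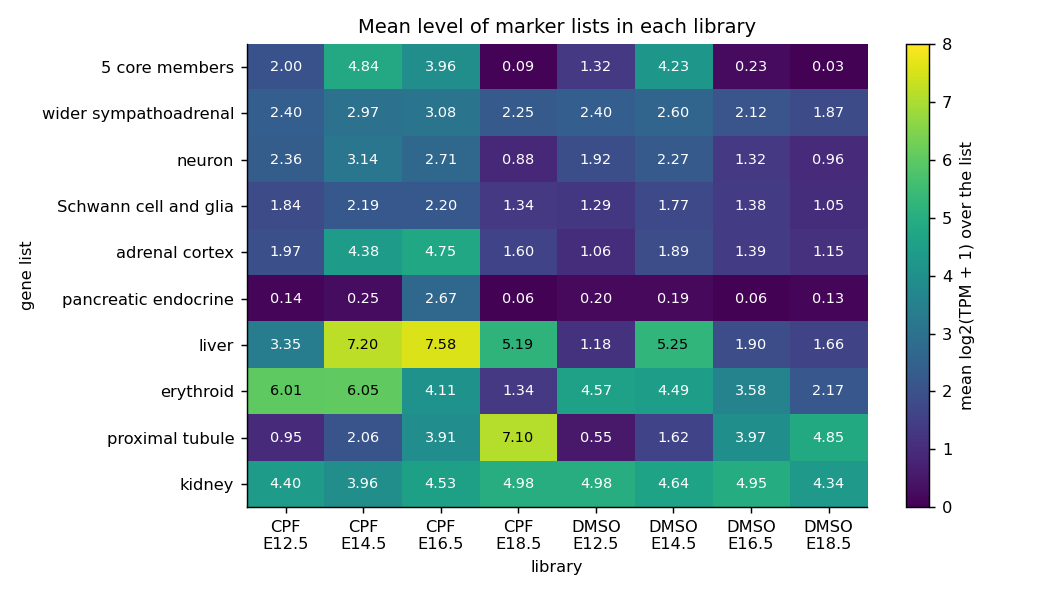
Mean log2(TPM + 1) over the genes of each list (rows) in each library (columns, CPF on the left and DMSO on the right, each from E12.5 to E18.5), with the value printed in each cell. Th, Dbh, Chga, Chgb and Phox2a (first row) average 3.96 in CPF and 0.23 in DMSO at E16.5, and adrenal cortex genes average 4.75 and 1.39 there.

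**Figure D4:**
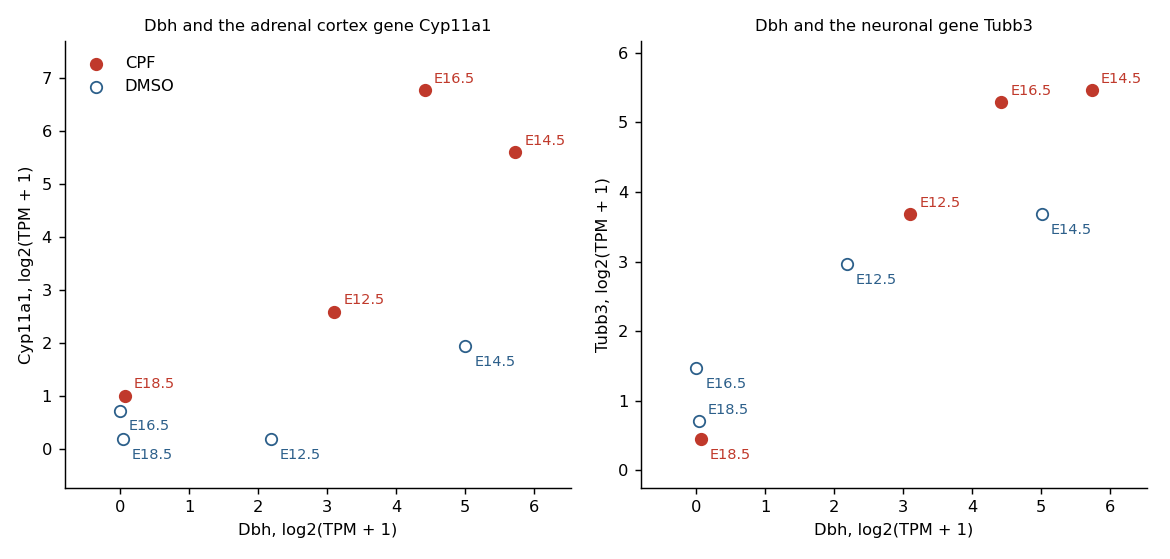
Dbh against the adrenal cortex gene Cyp11a1 (left) and the neuronal gene Tubb3 (right), as log2(TPM + 1), 1 point per library, filled red for CPF and open blue for DMSO. At E14.5 Dbh is 52.1 TPM in CPF and 31.1 TPM in DMSO, while Cyp11a1 is 47.4 TPM in CPF and 2.84 TPM in DMSO.

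Slc18a1 moved with proximal tubule genes more than with the noradrenergic ones. Over the 8 libraries its Pearson correlation of log2(TPM + 1) was 0.831 with Hnf4a and 0.663 with Slc34a1, while Dbh had -0.326 and -0.648 with the same genes. All these points share stage. Among the 9567 other genes that averaged 5 TPM or more, the 10 closest to Slc18a1 had r of 0.933 to 0.969. None of those 10 is on the proximal tubule list. The 15 proximal tubule genes summed to 20.9, 150, 532 and 6479 TPM in CPF, against 14.6, 60.8, 495 and 1165 TPM in DMSO, and 13 of the 13 that passed the filter were past 2-fold higher in CPF at E18.5, beside 20.4% of all genes. Slc18a1 was 9.18 TPM in CPF and 6.79 TPM in DMSO at E14.5 as well, where tubule genes were low. The 5′ end of Slc18a1 overlaps Atp6v1b2 on the opposite strand over 590 bases (chr8:69088646-69089235) with 0 exon bases in common. Atp6v1b2, a subunit of the vesicular proton pump, read 102, 107, 115 and 210 TPM in CPF, against 120, 98.0, 88.0 and 68.2 TPM in DMSO. Phox2a shares 95 exon bases with Inppl1 on the opposite strand, and Inppl1 was listed at 0.315 TPM or less in all 8 libraries. The sources used here do not say whether the counting used strand.

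The genes most like the members over the 8 libraries were sought among the 9567 other genes that averaged 5 TPM or more, by Pearson correlation with the mean profile of the 7 members that passed the filter. The first was the unnamed gene model LOC102636514 (r = 0.982), at 5.52, 67.2, 36.9 and 0 TPM in CPF, against 1.76, 17.8, 0.123 and 0 TPM in DMSO. Next came Ppbp (0.958), a platelet chemokine, and Serpind1 (0.957), a coagulation inhibitor that liver secretes. Apoc2 (0.932), Hpx (0.925) and Itih2 (0.920) also encode plasma proteins of liver, Ermap (0.923) encodes an erythroid membrane protein, and Nipa1 (0.924) and Nxpe2 (0.922) complete the list. The vesicle transporter Slc18a2 (0.925) was the 1 gene among the 10 that is on the wider sympathoadrenal list. This profile averages members of 3 patterns. By correlation with Dbh alone, LOC102636514 again came first (0.976). The 10 closest to Dbh then included Hand2 (0.953) and the neuronal Tubb3 (0.941), beside Ppbp (0.956) and Ermap (0.93). Rab30 (0.958) and Ak6 (0.958) ranked above these. Gng10 (0.942), Mrpl22 (0.934) and Efcab1 (0.931) were also among the 10.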

How the data were processed

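RNA of embryonic kidneys was sequenced in 8 libraries, 1 for each agent and stage, from 2 μg of total RNA each, per the labels' protocols. Reads were handled with Trimmomatic and STAR and the build was mm10, per the submitters' processing notes, without versions. The assignment of reads to transcripts, and its use of strand, are not given in the sources used here. Per library the authors deposited 1 table of TPM for 32862 RefSeq transcripts, which sums to 1000000.

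Transcripts were summed per symbol, and 52 rows whose symbols were listed as dates or numbers were restored from RefSeq identifiers. TPM holds no depth directly. Low values were whole multiples of a library constant within 0.05 for 72.6 to 76.6% of transcripts. That constant, 0.0610 to 0.105 TPM for 1 read per kb, gave the estimated reads. These cover counting only.

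Genes with at least 1 TPM in 2 libraries entered limma 3.58.1 (R 4.3.3) on log2(TPM + 1) with trend and robust moderation, agent and stage as terms and 3 residual degrees of freedom. Changes of genes with low values come out too small on this scale. With stage in the fit the spread is that of the agent difference between stages and not between animals, so p-values measure only the spread between these samples. The fit was tested on simulated data. Other tables and figures were made with Python 3.11.15, pandas 2.3.3, numpy 2.4.6 and matplotlib 3.10.9. Gene coordinates, which are those of mm10, and promoter windows are from RefSeq (GRCm38.p6). Gene strands, overlaps between genes and the transcript lengths behind the estimated reads are from GENCODE. Promoter windows matched 6 of the 8 members.

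The members and all gene lists were chosen with earlier results of these data known. The genes named are the members, and any gene of the wider sympathoadrenal, breakdown and proximal tubule lists. Also named are up to 5 of highest mean level of each other list, the 10 most like the members and the 10 most like Dbh. The grouping of 5 members, and the mention of Cyp11b1, Cyp21a1, Ins2 and Pax4, were chosen after their values were seen. Some genes of the lists are not reported here by name, and the sum over defining markers was taken over those reported.

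Alternatives were quantile normalization, scaling to NM transcripts, no filter, a filter at 5 TPM, a pseudocount of 0.1, embryonic day as a line, each stage pair left out, the E14.5 and E16.5 pairs left out, and genes with 1 transcript only.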

Additional observations from a re-analysis of the deposited data

How the results depend on the processing

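With 1 library per agent and stage, counts of genes called over all genes moved most. CPF minus DMSO gave 22 genes, and 0 after quantile normalization, with no filter or with embryonic day as a line (1485, 1537 and 1262 at an unadjusted p under 0.05 by limma). It gave 1 when scaled to NM transcripts, 98 with the 5 TPM filter, 83 with a pseudocount of 0.1, 34 without the E14.5 and E16.5 pairs, and 25 to 221 when 1 stage pair was left out. E18.5 minus E12.5 gave 1149 genes and 394 with no filter. Among the members, 1 was past 2-fold higher at E12.5 after quantile normalization (2 without it), and 2 at E18.5 with a pseudocount of 0.1 (Chgb beside Slc18a1). The members' median of 1.25 was 1.18 to 1.95 under the settings that kept all libraries, and 0.44 to 1.66 when 1 stage pair was left out, lowest without E16.5. Without E14.5 and E16.5 it was 0.47, and Th was then at -0.05. In CPF minus DMSO, all 83 alternative values of single members lay within the standard deviation of the member's own stage ratios. Values with stage pairs left out could not lie outside it, since the same ratios set it. Changes of filter and embryonic day as a line left each member's value as it was. The count of 83 therefore does not show that the averages are stable. In E18.5 minus E12.5, 47 of 55 alternative values lay within the spread used for that difference and 8 moved, 5 of them with the pseudocount of 0.1. The fit pairs the agents by stage, and the labels give no replicate numbers for any other pairing. Values under about 3 reads, which include most noradrenergic genes at E18.5, cannot be told from 0, and the number of animals behind a library limits every comparison.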
